A study of Mus musculus with 8 samples.

Results

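The genes described here mark the cells that wrap and surround brain blood vessels: 13 genes of mural cells (9 of pericytes and 4 of arterial smooth muscle), 3 genes of the vascular basement membrane and 21 genes of the fibroblasts of the meninges and perivascular spaces. They are a list of marker genes given by name, drawn up with earlier results of these data known, and number 37 of the 40659 genes in the count table. All 37 were abundant enough to be tested, among 17252 tested genes. RNA with poly(A) tails was sequenced from whole hippocampi of male C57BL/6JRj mice. At 7 to 8 weeks of age the mice had received a recombinant adeno-associated virus (rAAV) into the dorsal and the ventral hippocampus on both sides, and tissue was taken 4 weeks later, at a labelled age of postnatal week 12 to 13. In the hp708 group (4 mice) the virus carried a hairpin that yields the microRNA miR-708-5p, and in the hpCTL group (4 mice) it carried a control hairpin. The human synapsin promoter drove the hairpin, and it directs expression to neurons and not to the vascular cells whose genes are described here. Which cells expressed the hairpin, and how many cells remained uninfected, is not measured in these data. The animal of hp708 replicate 1 is listed under hpCTL in a qPCR source table of the same study. Its library is therefore called the library labelled hp708 replicate 1. Results of the 37 genes that rest on it are given with and without it, and other gene lists with it only. In whole tissue, fewer cells of a type and less RNA per cell cannot be told apart.

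Pericytes sit on capillaries within the basement membrane, and smooth muscle cells form a contractile coat on arteries and arterioles. Fibroblasts of the pia and arachnoid secrete collagens and small proteoglycans, carry transporters and make retinoic acid. Meninges and choroid plexus border the hippocampus and can come away with it in different amounts in each dissection. A microRNA pairs with messenger RNAs mainly through its seed, bases 2 to 8, and lowers the level or the translation of the messages it pairs with.

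The sequence of the hairpin's product and the sites matching it are shown because they relate the hairpin to these genes by sequence. The mature miR-708-5p lies at chr7:96249450-96249472 on the plus strand of GRCm38.p6 (RefSeq), and its seed is in capitals.

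miR-708-5p: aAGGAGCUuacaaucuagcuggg

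A site was counted where the 3′ untranslated region (3′ UTR, GENCODE vM39 on GRCm39, strand of the transcript) holds the complement of bases 2 to 8, or the complement of bases 2 to 7 followed by A. An 8mer holds both. Of the 37 members, 11 (29.7%) held a site, beside 3927 of 14808 tested genes with an annotated 3′ UTR (26.5%). Anpep, an aminopeptidase of pericytes and fibroblasts, was the only member with an 8mer, 140 bases after its stop codon. Foxc1 and Ptgds held 2 sites each, and Higd1b, Col4a1, Col4a2, Dcn, Islr, Serping1, Aldh1a2 and Tbx18 held 1 each. The letters below are from 3′ UTR exons, with the match to the seed in capitals. A match is a description and not a tested binding site.

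Anpep, 8mer, chr7:79471821-79471850, minus strand: agcctgtggagccagcctAGCTCCTAactg

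Ptgds, 7mer, chr2:25356287-25356316, minus strand: gctggctgcctgtacctctGCTCCTActcc

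Ptgds, 7mer, chr2:25355974-25356003, minus strand: cccctgcccccgtctgctgAGCTCCTtacc

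Serping1, 7mer, chr2:84595873-84595902, minus strand: acattgtcacccaagcttcAGCTCCTccgg

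None of the 37 genes passed a false discovery rate (FDR) of 0.05 for the difference between hp708 and hpCTL (edgeR quasi-likelihood test on counts with 3 surrogate variables, Benjamini-Hochberg adjustment over all 17252 genes). The lowest FDR among them was 0.511, for Crabp2. Over all tested genes, 1 passed, which is 0.0058%; 127 passed with edgeR's likelihood ratio test and 96 with DESeq2. At an unadjusted p under 0.05, 1 member was higher in hp708 (Lama2) and 3 were lower (Crabp2, Fmod and Ptgds). The same count over all tested genes was 2.82% higher and 4.87% lower, so in this fit 1 and 3 of 37 were close to the background. Fits with surrogate variables and without 1 library gave other counts at that p. They ran from 2 of 37 (5.41%), beside 2.98% of all genes without hpCTL replicate 3 and 6.09% without hpCTL replicate 4, to 13 of 37 (35.1%, 9 higher and 4 lower) without hp708 replicate 2, beside 12.0%. Without the library labelled hp708 replicate 1 the count was 9 of 37 (24.3%), beside 12.2%. Without surrogate variables, the fits that left out 1 library gave 0 to 4 of 37, beside 1.37% to 3.42% of all genes. The 4 (10.8%, all higher in hp708) came without hp708 replicate 3, beside 2.07%. Without hp708 replicate 2 the count was 0, beside 3.21%. Of the 37 log2 fold changes, 19 were above 0 and 18 below, and their median was 0.05, beside a median of -0.01 over all tested genes. At the same unadjusted p, 3 members (8.11%) passed by edgeR's likelihood ratio test, beside 6.01% of all tested genes. DESeq2 gave 4 (10.8%, beside 5.02%), the fit without surrogate variables gave 2 (5.41%, beside 1.81%), and no member passed FDR 0.05 by any of these. Without a filter on low counts 6 passed that p (16.2%, 5 of them lower), beside 5.87%, and with surrogate variables from normalized counts 8 did (21.6%), beside 13.3%, again with none past FDR 0.05. Since the samples are few, a p that misses the threshold does not show that these genes were equal.

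**Figure D1:**
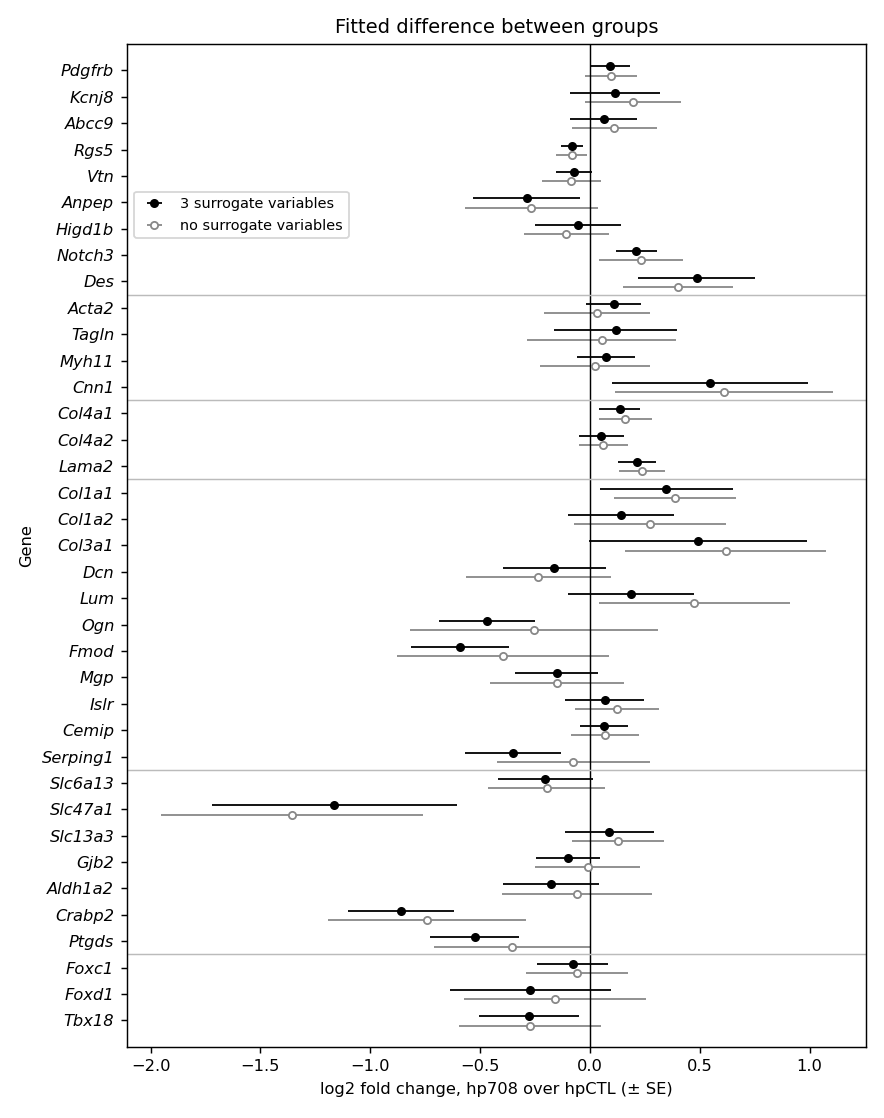
Log2 fold change of hp708 over hpCTL for the 37 genes, with SE, from the fit with 3 surrogate variables (filled) and without surrogate variables (open). Grey lines part the lists, and the points lie on either side of 0, with Slc47a1 and Crabp2 farthest to the left.

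The libraries held 22606824 to 28462428 counted reads, with 22675582 to 28462428 in hpCTL and 22606824 to 27482234 in hp708. Levels are given as counts per 1000000 reads (CPM) scaled by the TMM method. All 37 genes were detected in every library, and the lowest member count was 3 reads, for Cnn1 in hpCTL replicate 3. The hpCTL replicate 1 library stood apart within its group: it was highest of the 8 for 25.5% and lowest for 21.1% of all tested genes, and its counts differed from those of the other hpCTL libraries by a chi-square of 35.0 to 46.2 per degree of freedom, beside at most 16.3 among those 3. Pairs of hp708 libraries differed by 17.5 to 41.1, so hp708 libraries differed from each other about as much. Without it, 7 members were past an unadjusted p of 0.05 (5 higher, 2 lower; 9.67% of all genes tested in that fit) and none past FDR 0.05. The endothelial marker Cldn5 ranged from 36.4 to 43.6 CPM in hpCTL and from 33.5 to 44.0 CPM in hp708. Levels between genes are compared per kilobase of exon, as medians over the 8 libraries. On this scale Ptgds was highest at 67.1 CPM per kb, then Vtn at 26.2, Rgs5 at 15.8, Col4a2 at 13.5 and Mgp at 12.3. Cnn1 at 0.162, Foxd1 at 0.207 and Des at 0.335 CPM per kb were lowest.

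Pericyte genes differed in how much they varied within groups. The standard deviation of log2 CPM had a median of 0.30 over the 9 genes, and 7 of the 9 were above the median of all tested genes. That median was 0.18 over all tested genes, 0.23 over 20 further pericyte genes and 0.16 over 16 endothelial genes. The 9 include genes of few reads (Des 26 to 66, Higd1b 36 to 61), and the comparison was not adjusted for depth. Rgs5 was the steadiest of the 9. Rgs5, a regulator of G protein signalling and the most abundant pericyte gene per kilobase after Vtn, was at 103, 94.1, 96.6 and 99.8 CPM in hpCTL replicates 1 to 4. It was at 97.7, 99.7, 84.6 and 89.6 CPM in hp708 replicates 1 to 4. The highest library was 1.22-fold above the lowest, and the groups overlapped (log2 fold change -0.08 ± 0.05 SE, FDR 0.754 in edgeR's quasi-likelihood test). The standard deviation of its log2 CPM within groups was 0.09, at percentile 11.6 of all tested genes.

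Pdgfrb, the receptor through which endothelial PDGF-B recruits pericytes, was at 22.7, 25.9, 27.98 and 30.2 CPM in hpCTL. It was at 32.0, 25.8, 24.9 and 31.3 CPM in hp708, within an overlapping range. Its log2 fold change was 0.09 ± 0.09 (SE). Notch3, the Notch receptor of mural cells, was at 8.25, 15.8, 14.6 and 14.9 CPM in hpCTL and at 17.3, 14.04, 14.6 and 17.0 CPM in hp708. The hpCTL replicate 1 library was the low one. The log2 fold change was 0.21 ± 0.09 (SE; FDR 0.667, edgeR), and in the fit without surrogate variables it was 0.23 ± 0.19 with all libraries and 0.06 without hpCTL replicate 1. Without the library labelled hp708 replicate 1 the fit with surrogate variables gave 0.07.

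Kcnj8 and Abcc9 encode the pore and the regulatory subunit of the ATP-sensitive potassium channel of pericytes and lie next to each other on chromosome 6, with 15757 bases between them. Abcc9 was at 5.11, 8.88, 8.29 and 8.79 CPM in hpCTL and at 7.18, 8.04, 10.1 and 8.22 CPM in hp708. Kcnj8 was at 3.57, 3.06, 2.54 and 3.08 CPM in hpCTL and at 3.19, 4.39, 2.34 and 4.13 CPM in hp708. The ratio of Kcnj8 to Abcc9 per kilobase ran from 0.718 in hp708 replicate 3 to 2.15 in hpCTL replicate 1, so the neighbours did not keep a constant ratio from library to library. Fitted log2 fold changes were 0.12 ± 0.20 (SE) for Kcnj8 and 0.06 ± 0.15 for Abcc9. For Kcnj8 the value was 0.36 without the library labelled hp708 replicate 1 and 0.02 without hp708 replicate 4, and for Abcc9 it was -0.12 without hpCTL replicate 1.

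Vtn, the matrix protein vitronectin, ranged from 76.6 to 98.9 CPM in hpCTL and from 63.2 to 97.2 CPM in hp708. Des, the intermediate filament protein desmin, was higher in hp708 by 0.49 ± 0.27 (log2, SE), at 1.75, 1.31, 1.07 and 1.99 CPM in hpCTL and 2.39, 1.70, 1.66 and 2.35 CPM in hp708. Its groups overlapped (FDR 0.727, edgeR). Higd1b, a mitochondrial protein gene enriched in pericytes, stayed between 1.49 and 2.36 CPM in all 8 libraries; 23.8% of its exonic bases are shared with the opposite-strand Eftud2.

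Anpep, the member with the 8mer shown above, was at 3.57, 4.07, 6.40 and 9.01 CPM in hpCTL. It was at 5.76, 4.48, 3.37 and 5.53 CPM in hp708. The groups overlapped, and the highest library was hpCTL replicate 4. The log2 fold change was -0.29 ± 0.24 (SE; FDR 0.827, edgeR), and leaving out hpCTL replicate 4 from the fit without surrogate variables turned it to 0.03.

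Of the 11 members with a seed match, 8 had a log2 fold change below 0 (median -0.16), and of the 26 without one, 10 did (median 0.08). Below 0 were 9176 of all 17252 tested genes, and no such count was made for all tested genes with a site. Among the 11, Dcn, Islr, Serping1, Aldh1a2, Ptgds, Foxc1 and Tbx18 are fibroblast genes, and the fibroblast list itself had a median of -0.16. Of the 8 below 0, only Ptgds kept its sign in every fit that left out 1 library. At an unadjusted p under 0.05, 1 of the 11 (Ptgds) and 2 of the 26 (Crabp2 and Fmod) were lower, beside 4.87% of all tested genes. No test was run on this split, since many genes of a list, though not all, were high or low in the same libraries.

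Of the 4 smooth muscle genes, 3 were high and low in the same libraries, which lay in both groups. Acta2, smooth muscle actin, was at 9.71, 8.83, 7.06 and 12.1 CPM in hpCTL and at 14.1, 9.74, 6.99 and 7.68 CPM in hp708. Tagln, the actin-binding protein transgelin, was at 5.28, 5.42, 4.31 and 8.90 CPM in hpCTL and at 10.004, 5.04, 3.20 and 6.53 CPM in hp708. Myh11, the smooth muscle myosin heavy chain, was at 6.53, 8.13, 6.19 and 9.43 CPM in hpCTL and at 11.9, 6.87, 5.50 and 6.40 CPM in hp708. For each of these 3 genes the library labelled hp708 replicate 1 was highest, hpCTL replicate 4 was next and hp708 replicate 3 was lowest.

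The fitted differences of these 3 genes were 0.11 ± 0.13 (Acta2), 0.12 ± 0.28 (Tagln) and 0.07 ± 0.13 (Myh11) on the log2 scale (± SE), all within their errors. Without the library labelled hp708 replicate 1 they were -0.14, -0.17 and -0.28, none past FDR 0.05. Their direction also turned when the surrogate variables were estimated from normalized counts, and for Tagln and Myh11 with replicate number as a block. Cnn1, calponin, had only 3 to 21 reads in a library, and its log2 fold change of 0.55 ± 0.45 (SE) is as uncertain as those counts. Of the exonic bases of Tagln, 60.7% are shared with the opposite-strand Gm48529, and 35.1% of those of Cnn1 with Elof1; whether counting used strand is not given in the sources used here, so their reads may be mixed.

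The promoter of Acta2 is shown because Acta2, Tagln and Myh11 were high and low in the same libraries, and contractile genes are known to share a motif, the CArG box, bound by serum response factor. A CArG box was searched in windows of 300 bases, 250 before and 50 after the start of a gene (RefSeq, GRCm38.p6), as a core of 6 A or T positions between its flanking pairs; 1 of the 6 positions was allowed another letter in a relaxed search. The box reads as itself on the opposite strand. Of all 32851 windows, 1.63% held the strict form and 9.98% the relaxed form. A window was found for 26 of the 37 members, of which Lama2 held the strict form and Acta2, Col1a2, Lama2 and Tbx18 the relaxed one. Acta2 was the only member with 2 relaxed boxes, starting 84 and 34 bases before the start site and printed in capitals. Of the other smooth muscle genes, only Cnn1 had a window, which held neither form, so these windows do not show whether the genes that followed the same libraries share the motif; Tagln and Myh11 were not searched.

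Acta2 promoter, chr19:34255324-34255623, minus strand: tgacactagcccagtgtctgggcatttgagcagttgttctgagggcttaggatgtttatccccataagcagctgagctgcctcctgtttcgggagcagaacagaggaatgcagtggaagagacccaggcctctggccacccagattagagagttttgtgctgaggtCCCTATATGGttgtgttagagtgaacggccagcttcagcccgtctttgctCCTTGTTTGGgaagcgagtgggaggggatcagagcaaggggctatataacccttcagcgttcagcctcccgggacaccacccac

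The basement membrane genes held the only member whose groups did not overlap. Lama2, the laminin α2 chain, was at 12.5, 14.4, 15.1 and 15.1 CPM in hpCTL. It was at 17.8, 18.1, 15.8 and 15.7 CPM in hp708, so the lowest hp708 library stood just above the highest hpCTL library. The group means were 14.3 ± 1.26 and 16.8 ± 1.29 CPM (SD, n = 4 each). The log2 fold change was 0.21 ± 0.08 (SE), with an FDR of 0.632 in edgeR's quasi-likelihood test, and 0.17 without the library labelled hp708 replicate 1. An exact two-sided permutation test of log2 CPM gave p = 0.0286, the smallest that 4 against 4 libraries allow. Groups that do not overlap always give this value, so it adds nothing to the observation above. The same permutation test gave 0.229 for Crabp2, 0.371 for Fmod and 0.371 for Ptgds, the other members past an unadjusted p of 0.05. Groups that do not overlap were found for 1 of the 37 members and for 1.51% of all tested genes. Lama2 is also made by fibroblasts and astrocytes, and 2 of 10 astrocyte markers were higher in hp708 at an unadjusted p under 0.05, beside 2.82% of all tested genes. The part of astrocytes in the Lama2 difference was not tested.

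Col4a1 and Col4a2 encode the 2 chains of the main type IV collagen of vascular basement membranes and are transcribed head to head on chromosome 8. The stretch shared by their promoter windows is shown because it holds both annotated starts, which are 22 bases apart counting both ends; those 22 bases are in capitals, and 73.1% of the 78 bases are G or C, beside a median of 52.7% over all windows.

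Col4a1 and Col4a2, chr8:11312777-11312854 of GRCm38.p6, plus strand: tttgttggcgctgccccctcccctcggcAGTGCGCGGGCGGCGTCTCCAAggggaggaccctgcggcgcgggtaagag

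Col4a1 was at 61.9, 68.3, 80.6 and 81.2 CPM in hpCTL and at 84.4, 71.5, 73.9 and 96.7 CPM in hp708. Col4a2 was at 90.7, 94.3, 104 and 99.3 CPM in hpCTL and at 108, 85.7, 89.5 and 122 CPM in hp708. Their ratio per kilobase stayed between 0.656 and 0.802 in the 8 libraries, a far narrower range than that of Kcnj8 to Abcc9. The log2 fold changes were 0.14 ± 0.09 and 0.05 ± 0.10 (SE), and the groups overlapped for both. Endothelial cells also make these chains.

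**Figure D2:**
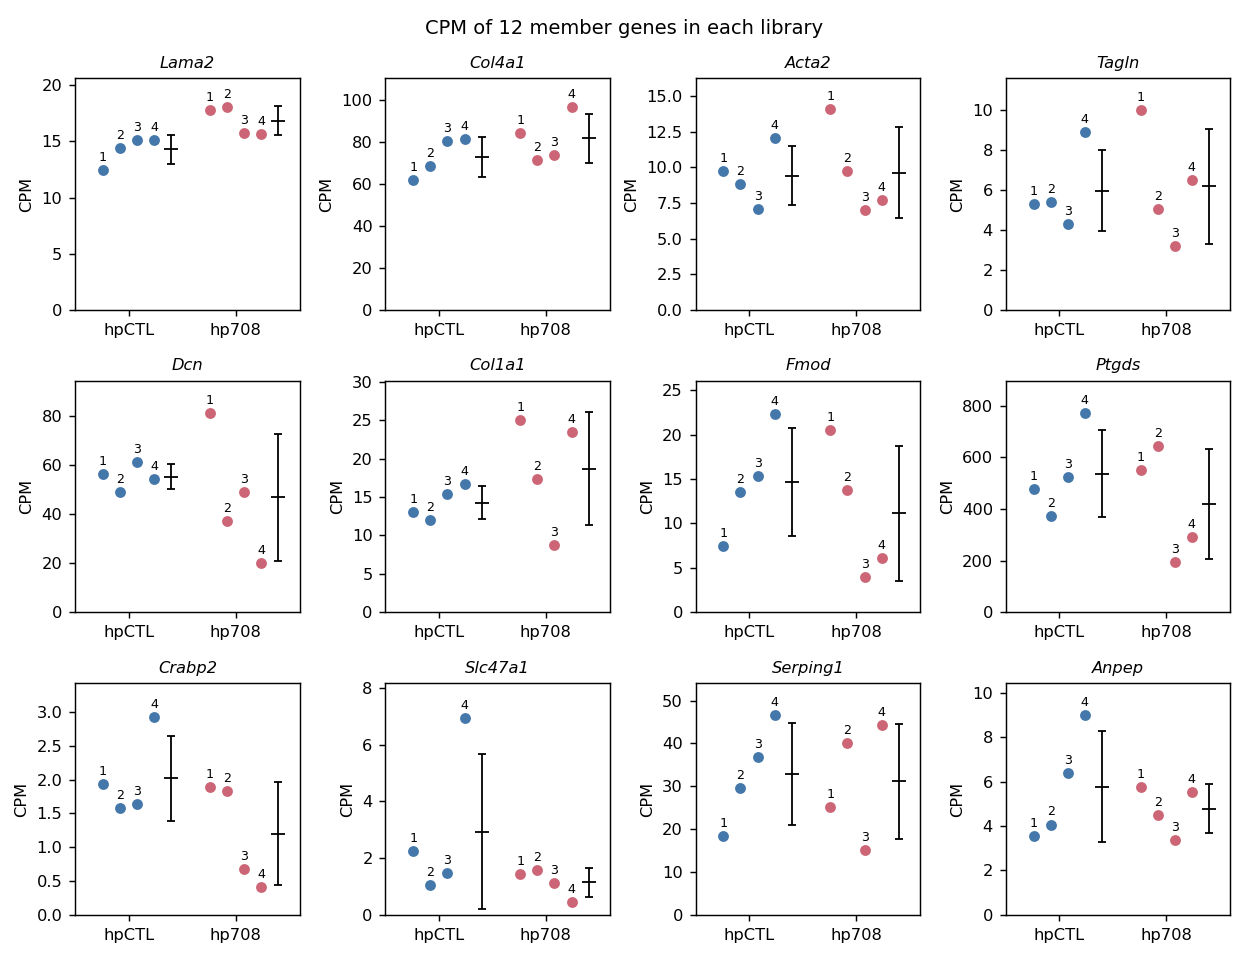
CPM of 12 of the genes in each library (numbers are replicate numbers), with the group mean and SD beside the points. The y axes start at 0; Lama2 is the only one of the 12 whose groups do not overlap, and hpCTL replicate 4 and the library labelled hp708 replicate 1 are high for many of the others.

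The fibroblast genes differed more between libraries than the mural or basement membrane genes. Over all 8 libraries, the highest was above the lowest by a median of 3.41-fold (1.70 to 15.3) for the 21 fibroblast genes, 2.02-fold (1.22 to 7.42) for the 13 mural genes and 1.45-fold (1.42 to 1.56) for the 3 basement membrane genes. The within-group standard deviation of log2 CPM had a median of 0.61 over the fibroblast genes, 0.33 over the mural genes and 0.18 over the basement membrane genes, beside 0.18 over all tested genes, and 12 of the 21 fibroblast genes were above the 90th percentile of tested genes. Of the 21, 13 were lowest in hp708 replicate 3 and 6 in hp708 replicate 4, while 12 were highest in hpCTL replicate 4 and 4 in the library labelled hp708 replicate 1. Of the 13 mural genes, 7 were also lowest in hp708 replicate 3. Over all tested genes, 13.9% were lowest in hp708 replicate 3 and 7.92% highest in hpCTL replicate 4. The summed level of the 21 genes was high in hp708 replicates 1 and 2 and low in replicates 3 and 4.

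**Figure D3:**
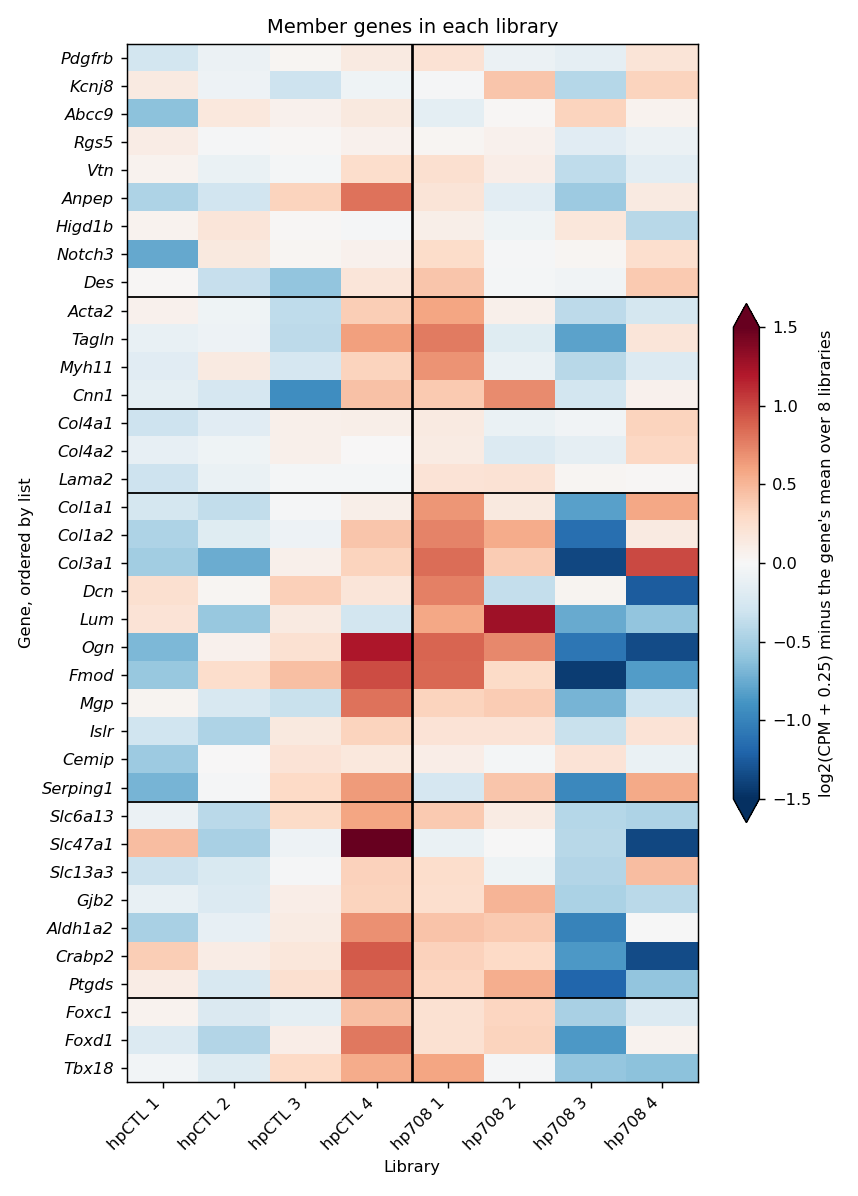
Log2(CPM + 0.25) of each gene minus its mean over the 8 libraries, with hpCTL left and hp708 right of the vertical line and horizontal lines between the lists. Most fibroblast rows are red (higher) in hpCTL replicate 4 and in the libraries labelled hp708 replicates 1 and 2 and blue (lower) in hp708 replicate 3, while the rows of Rgs5 and the basement membrane genes stay pale.

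The fibrillar collagens had higher means in hp708 than in hpCTL, within the spread of the libraries. Col1a1, the α1 chain of type I collagen, was at 13.0, 12.1, 15.4 and 16.6 CPM in hpCTL and at 25.0, 17.3, 8.82 and 23.5 CPM in hp708. Col3a1, of type III collagen, was at 3.82, 3.24, 5.91 and 7.10 CPM in hpCTL and at 10.1, 7.30, 2.00 and 11.3 CPM in hp708. For both, 3 hp708 libraries were above all hpCTL libraries and hp708 replicate 3 was below all of them. Fitted differences were 0.35 ± 0.30 (Col1a1), 0.14 ± 0.24 (Col1a2, which pairs with Col1a1 in type I collagen) and 0.49 ± 0.50 (Col3a1), each log2 ± SE. Without hp708 replicate 3 that of Col3a1 was 1.01, and without hp708 replicate 4 it was 0.13. With 1 library left out, that of Col1a1 ran from 0.19 (without hp708 replicate 4) to 0.71 (without hp708 replicate 3), and that of Col1a2 from 0.05 (without the library labelled hp708 replicate 1) to 0.55 (without hp708 replicate 3 and without surrogate variables).

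The small leucine-rich proteoglycans, which bind collagen fibrils, did not move as one. Fmod, fibromodulin, was at 7.46, 13.6, 15.4 and 22.3 CPM in hpCTL and at 20.6, 13.8, 4.01 and 6.15 CPM in hp708. The groups overlapped widely, with the library labelled hp708 replicate 1 second only to hpCTL replicate 4. Its log2 fold change was -0.59 ± 0.22 with surrogate variables and -0.40 ± 0.48 without (SE), and edgeR's quasi-likelihood FDR was 0.613 and 0.999. Without the library labelled hp708 replicate 1 it was -1.03 with an FDR of 0.0399 (edgeR), the only member past 0.05 in any fit that left out a library. The same library left out of the fit without surrogate variables gave -0.87 with an FDR of 0.999.

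Dcn, decorin, was at 56.5, 48.8, 61.2 and 54.2 CPM in hpCTL, a spread of 5.15 CPM (SD). In hp708 it was at 81.0, 37.3, 49.0 and 19.99 CPM, a spread of 25.7 CPM (SD), with the library labelled hp708 replicate 1 highest of all 8 and hp708 replicate 4 lowest. The log2 fold change was -0.16 ± 0.23 (SE; FDR 0.910, edgeR) with all libraries and -0.84 (FDR 0.184) without the library labelled hp708 replicate 1. Lum, lumican, which lies 42834 bases from Dcn on chromosome 10, was at 6.35, 3.63, 6.03 and 4.51 CPM in hpCTL and at 8.30, 13.6, 3.15 and 3.55 CPM in hp708. Dcn over Lum per kilobase ran from 1.35 in hp708 replicate 2 to 7.64 in hp708 replicate 3.

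Ogn, osteoglycin, was at 4.00, 6.87, 7.67 and 15.5 CPM in hpCTL and at 12.2, 10.9, 2.94 and 2.44 CPM in hp708. Its within-group standard deviation of 1.02 (log2) was the largest of the 37 genes, above 98.2% of tested genes. Ogn had a log2 fold change of -0.47 ± 0.22 with surrogate variables and -0.26 ± 0.56 without (SE), and of -0.97 (FDR 0.202, edgeR) without the library labelled hp708 replicate 1. Ogn shares 18.8% of its exonic bases with the opposite-strand Cenpp.

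In hp708 replicate 4, 2 pairs of genes picked out after their values were seen had unusual ratios. Col3a1 was highest there of all 8 libraries while Ogn and Dcn were lowest there. Col3a1 over Ogn per kilobase was 2.77 in that library and 0.273 to 0.570 in the other 7. Col1a1 over Dcn per kilobase was 2.33 there and 0.358 to 0.923 in the others. Col1a2 was at 25.2 CPM there, below 3 other libraries, and Lum and Fmod were second lowest there, after hp708 replicate 3. Markers of the subiculum, a region next to the hippocampus proper, differed in the same library. Fn1 and Fbln1 in that list also count among the further meningeal fibroblast genes below, so it is not a list of neuronal genes alone. Of the 10 markers, 7 were lowest and 2 highest in hp708 replicate 4, with none at 0. The mean log2 CPM of the 9 tested was 3.14 there, 4.56 in the library labelled hp708 replicate 1 and 3.85 to 4.43 in the others. The summed level of the 10 was 316 CPM there, within the range of 278 to 383 CPM in hpCTL and 280 to 376 CPM in hp708. The part of that region in the Dcn values was not tested.

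Mgp, Islr and Cemip had overlapping groups and log2 fold changes between -0.15 and 0.07. Mgp, matrix Gla protein, ranged from 12.4 to 27.6 CPM in hpCTL and from 9.59 to 20.5 CPM in hp708. Islr, a secreted protein with leucine-rich repeats and an immunoglobulin domain, ranged from 16.1 to 27.9 CPM in hpCTL and from 17.5 to 25.7 CPM in hp708, and 22.3% of its exonic bases are shared with Islr2 on the same strand. Cemip, a hyaluronan-degrading protein, was highest in hp708 replicate 3 at 34.4 CPM, the library where most fibroblast genes were lowest, and lowest in hpCTL replicate 1 at 20.2 CPM.

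Serping1, the inhibitor of complement C1 esterase and a known interferon-responsive gene, was at 18.3, 29.6, 36.8 and 46.6 CPM in hpCTL. It was at 25.1, 40.1, 15.2 and 44.2 CPM in hp708. Serping1 had a log2 fold change of -0.35 ± 0.22 with surrogate variables and -0.08 ± 0.35 without (SE), and without the library labelled hp708 replicate 1 it was 0.01. A list of 10 interferon-response genes summed to 251, 457, 501 and 567 CPM in hpCTL and to 232, 511, 258 and 489 CPM in hp708, with no gene at 0, so the libraries low in Serping1 (hpCTL replicate 1 and the libraries labelled hp708 replicates 1 and 3) were low in that list as well. Of those 10 genes, 9 were lower in hp708 at an unadjusted p under 0.05 with surrogate variables (median log2 fold change -0.63), beside 4.87% of all tested genes, and none without them (median -0.22), and none passed FDR 0.05. The library labelled hp708 replicate 1 was lowest for 7 of these 10 genes, and no fit of the list without it is given here. The part of the interferon-response genes in the Serping1 values was not tested.

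Of the 7 genes of transport and retinoid metabolism, 6 were below 0, with a median log2 fold change of -0.20; without hpCTL replicate 3, Slc6a13 and Gjb2 turned to 0.05 and 0.06. Crabp2, which carries retinoic acid to its nuclear receptors, was at 1.93, 1.57, 1.64 and 2.93 CPM in hpCTL. It was at 1.88, 1.83, 0.682 and 0.413 CPM in hp708. Replicates 1 and 2 of hp708 lay among the hpCTL libraries and replicates 3 and 4 below all of them. Crabp2 had a log2 fold change of -0.86 ± 0.24 (SE; unadjusted p 0.00857, FDR 0.511, edgeR) and -0.74 ± 0.45 without surrogate variables. Leaving out hp708 replicate 4 gave -0.56, and leaving out the library labelled hp708 replicate 1 gave -1.22; over all 16 such fits the range was -1.22 to -0.46. In reads, the lowest library held 10 and the highest 78.

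Ptgds, the prostaglandin D2 synthase that meningeal cells and choroid plexus secrete into the cerebrospinal fluid, was at 478, 373, 523 and 770 CPM in hpCTL. It was at 550, 643, 193 and 292 CPM in hp708. Again hp708 replicates 3 and 4 were the low libraries and replicates 1 and 2 lay within the hpCTL range. For Ptgds the log2 fold change was -0.53 ± 0.20 (SE; FDR 0.613, edgeR) and -0.35 ± 0.36 without surrogate variables. It was -0.29 without hpCTL replicate 3, and -0.11 without hp708 replicate 3 when surrogate variables were left out as well.

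Slc47a1, the multidrug and toxin extruder MATE1, had the largest log2 fold change of the 37 genes, and 1 library set it. It was at 2.25, 1.05, 1.48 and 6.95 CPM in hpCTL and at 1.45, 1.57, 1.11 and 0.454 CPM in hp708. Only hpCTL replicate 4 was above 2.25 CPM. That library held 185 reads of the gene and the others 11 to 63, so its values are limited by depth. The log2 fold change was -1.16 ± 0.56 (SE; FDR 0.689, edgeR) with all 8 libraries and -0.44 without hpCTL replicate 4.

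Aldh1a2, the enzyme that makes retinoic acid from retinaldehyde, ranged from 4.18 to 9.73 CPM in hpCTL and from 2.86 to 8.12 CPM in hp708. Slc6a13, a GABA and taurine transporter, ranged from 5.38 to 10.9 and from 5.12 to 9.50 CPM, and Gjb2, the gap junction protein connexin 26, from 7.74 to 11.3 and from 6.39 to 12.9 CPM. Slc13a3, a dicarboxylate transporter, was the only gene of this list above 0 (0.09 ± 0.20, log2, SE), with its highest level in hp708 replicate 4 at 25.3 CPM.

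The transcription factors of the list were low in level and below 0 in the fitted difference, with overlapping groups. Foxc1, needed for formation of the meninges, was at 5.00, 4.11, 4.31 and 6.65 CPM in hpCTL and at 5.69, 6.09, 3.37 and 4.13 CPM in hp708 (log2 fold change -0.08 ± 0.16, SE). Tbx18, a factor of mural cells and fibroblasts, was at 2.39, 2.14, 3.12 and 3.76 CPM in hpCTL and at 3.88, 2.43, 1.58 and 1.53 CPM in hp708 (-0.28 ± 0.23). The library labelled hp708 replicate 1 was its highest, and without it the value was -0.60 (FDR 0.393, edgeR). Of the exonic bases of Tbx18, 21.0% are shared with the opposite-strand D030062O11Rik. Foxd1 had 10 to 50 reads in a library (-0.27 ± 0.37).

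**Figure D4:**
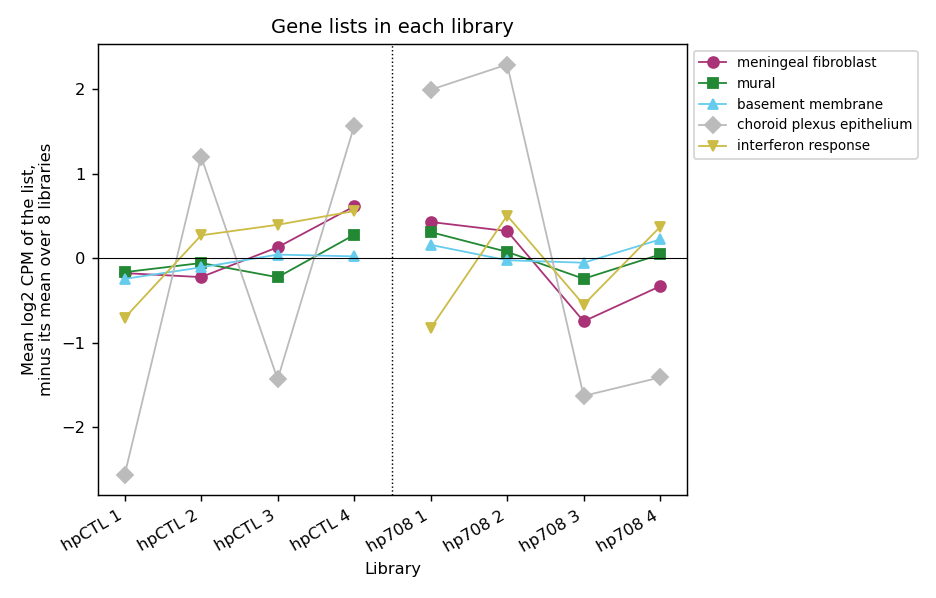
Mean log2 CPM of each gene list in each library minus the list's mean over the 8 libraries; lines only join the libraries of a group. The fibroblast list is high in hpCTL replicate 4 and in the libraries labelled hp708 replicates 1 and 2 and low in hp708 replicate 3, the mural and basement membrane lists vary less, and the choroid plexus list spans the widest range.

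Markers of neighbouring tissue differed between the libraries as well. The summed level of 15 choroid plexus epithelium genes ran from 242 to 3209 CPM in hpCTL and from 308 to 6488 CPM in hp708, and none was at 0. Ttr, which encodes transthyretin and defines that epithelium, was at 25.6, 1485, 105 and 1872 CPM in hpCTL and at 2743, 4106, 67.7 and 124 CPM in hp708. The 21 fibroblast genes summed to 705, 614, 819 and 1134 CPM in hpCTL and to 912, 952, 385 and 545 CPM in hp708. Ptgds made up 50.1 to 67.9% of these sums and is itself made by choroid plexus; without it the sums were 227, 241, 296 and 364 CPM in hpCTL and 363, 309, 192 and 253 CPM in hp708. With or without Ptgds, the 3 libraries with the highest fibroblast sums were among the 4 with the highest Ttr, but hpCTL replicate 2 was high in Ttr and low in fibroblast genes.

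The 8 border macrophage genes, of the cells that line the meninges and perivascular spaces, summed to 26.2 to 47.9 CPM in hpCTL and 25.2 to 42.3 CPM in hp708, with none at 0. The macrophage receptor gene Mrc1 was lowest in hp708 replicate 3 at 2.30 CPM and highest in hp708 replicate 2 at 7.13 CPM. The 5 blood genes summed to 66.2 to 134 CPM in hpCTL and 69.3 to 101 CPM in hp708, and the haemoglobin gene Hbb-bs ranged from 33.8 to 67.2 and from 35.5 to 53.4 CPM. In the fit with surrogate variables all 5 blood genes were below 0 (median log2 fold change -0.33), and the 6 border macrophage genes tested had a median of -0.43. Of 10 microglia genes, all were below 0 (median -0.30), 8 at an unadjusted p under 0.05 (beside 4.87% of all tested genes, and none of the 10 without surrogate variables) and none at FDR 0.05, and they summed to 898 to 1237 CPM in hpCTL and 722 to 1311 CPM in hp708, with none at 0. Without surrogate variables these medians were -0.35, -0.18 and -0.13. The library labelled hp708 replicate 1 was lowest for 9 of the 10 microglia genes, and no fit of these lists without it is given here. How far the amount of meninges, choroid plexus, blood or immune cells in each sample bears on the member genes was not tested.

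Further genes of the same cells and of their signalling were read from the same fit. Of 20 further pericyte genes tested, 1 was higher and none lower at an unadjusted p under 0.05. The 1 was Zic1, which is not particular to pericytes. Of 14 further smooth muscle genes, none was past that p in either direction, and of 48 further meningeal fibroblast genes, 3 were lower and none higher. Of 19 genes of PDGF, TGF-beta and Notch ligands and receptors, 1 was higher and 1 lower, and no gene of these 4 lists passed FDR 0.05. The share over all tested genes was 2.82% higher and 4.87% lower. Their median log2 fold changes were -0.01, -0.07, -0.01 and -0.03.

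The genes past the unadjusted p were Zic1, Ranbp3l, Itih2, Bmp7, Tgfb1 and Notch1. Zic1, a zinc finger transcription factor of the meninges and of some neurons, was at 7.35, 9.53, 9.80 and 12.9 CPM in hpCTL and at 13.4, 49.6, 6.82 and 12.8 CPM in hp708, so its log2 fold change of 0.37 ± 0.11 (SE), and of 1.06 without surrogate variables, went with a high hp708 replicate 2 library and overlapping groups. Ranbp3l was at 4.43, 5.07, 4.51 and 7.32 CPM in hpCTL and at 5.07, 4.91, 2.56 and 2.56 CPM in hp708 (-0.53 ± 0.13). Bmp7, a ligand of the TGF-beta family, was at 6.71, 8.05, 7.38 and 13.9 CPM in hpCTL and at 12.2, 10.2, 3.92 and 4.46 CPM in hp708 (-0.31 ± 0.13).

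For Ranbp3l and Bmp7 hp708 replicates 3 and 4 were the low libraries, as for Crabp2, Fmod, Ogn and Ptgds. Itih2, an inhibitor chain bound to hyaluronan, had a log2 fold change of -0.53 ± 0.22 (SE). The growth factor gene Tgfb1 had -0.40 ± 0.15 and the receptor gene Notch1 had 0.13 ± 0.05. All 3 had overlapping groups.

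Leaving out libraries showed how many directions rested on a few of them. Of the 37 genes, 18 were below 0 with all 8 libraries, and the number ran from 15 to 21 when each library was left out with surrogate variables and from 10 to 21 without surrogate variables. The median over the mural genes was 0.09 and over the fibroblast genes -0.16, beside -0.01 over all tested genes. Without surrogate variables these medians were 0.05 and -0.08. Both changed sign when libraries were left out: the mural median was -0.07 without the library labelled hp708 replicate 1 and ran from -0.11 to 0.18 over the 16 fits, and the fibroblast median was 0.14 without hpCTL replicate 4 and without surrogate variables and ran from -0.22 to 0.14. With 3 surrogate variables and without the library labelled hp708 replicate 1, Acta2, Tagln, Myh11 and Cemip went below 0 and Serping1 above it.

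**Figure D5:**
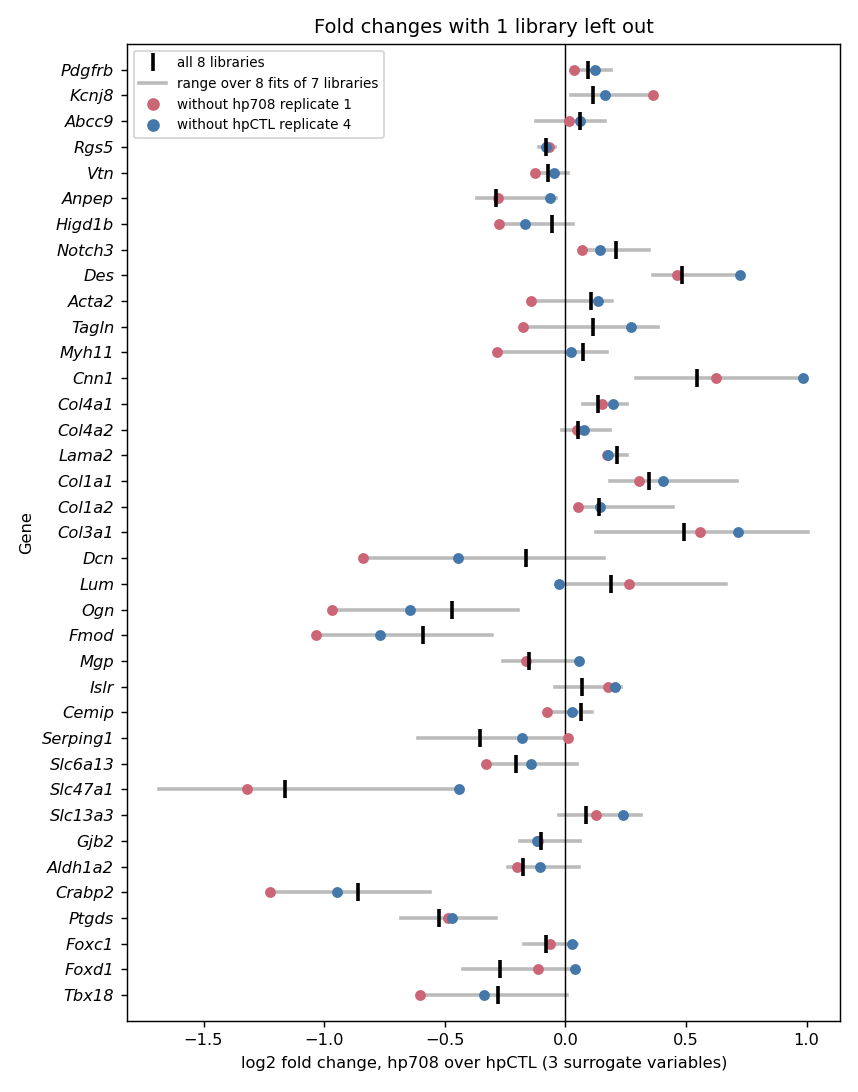
Log2 fold change of the 37 genes with all 8 libraries (bar), the range over the 8 fits that each leave out 1 library (grey), and the values without the library labelled hp708 replicate 1 (red) and without hpCTL replicate 4 (blue). Dcn, Ogn, Fmod and Slc47a1 have wide ranges, and Rgs5, Lama2 and the type IV collagen genes narrow ones.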

How the data were processed

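Reads from TruSeq mRNA libraries were aligned by the authors with STAR 2.7.8a to GRCm39 and counted per gene of GENCODE M26 with featureCounts 1.6.4; the deposited values are raw counts with no normalization. Strand and multimapping settings are not given in the sources used here. Each library is 1 mouse. Counts were filtered with filterByExpr, scaled by TMM and fitted in edgeR 4.0.16 (R 4.3.3) with group and 3 surrogate variables from sva 3.50.0 on the filtered counts; the quasi-likelihood test was adjusted by Benjamini-Hochberg over all tested genes. Log2 CPM used a prior count of 2. Single genes were also compared by an exact two-sided permutation test. The fit was tested on simulated data. DESeq2 1.42.0 and the other fits tried are described in the closing section. Of the gene identifiers, 39641 of 40659 were named from GENCODE vM39. The named genes were all 37 members, context-list genes past FDR 0.05, the up to 3 highest and 3 lowest at an unadjusted p under 0.05 in 4 related lists, and a few defining markers of neighbouring tissue, one of which is not reported here. Members, lists and tests were chosen with earlier results of these data known. Replicate numbers do not pair the mice. Total counts, 22606824 to 28462428, limit genes of few reads. Errors of the fit with surrogate variables cover counting and the spread between mice that those variables leave. Without surrogate variables the SE was larger for genes such as Fmod (0.48 beside 0.22) and smaller for others such as Col1a1 (0.28 beside 0.30).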

Additional observations from a re-analysis of the deposited data

Results flagged for a closer look

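In 3 of the 74 groups of 4 libraries examined (37 genes in hpCTL and in hp708), 1 library lay apart from the other 3 by Dixon's criterion, and about 1 in 20 groups, here 3.7, is flagged by chance. Abcc9 was at 5.11 CPM in hpCTL replicate 1, with the other hpCTL libraries at 8.29 to 8.88 CPM. Notch3 was at 8.25 CPM in the same library, with the others at 14.6 to 15.8 CPM; that library was also the highest or the lowest of the 8 for many of all tested genes. Islr was at 17.5 CPM in hp708 replicate 3, with the others at 25.5 to 25.7 CPM.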

How the results depend on the processing

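No member passed FDR 0.05 under any of 8 alternatives to the fit (7 planned and surrogate variables from normalized counts, added after the data were seen), nor in 15 of the 16 fits that left out 1 library; the count of members called ran from 0 to 1, the 1 being Fmod (-1.03) without the library labelled hp708 replicate 1. Genes called over the whole table numbered 1 with surrogate variables, 0 without, 0 with 1 surrogate variable, 127 with the likelihood ratio test, 96 with DESeq2, 12 without a filter, 0 with surrogate variables from normalized counts, and 0 to 56 with 1 library left out, 56 being without the library labelled hp708 replicate 1; the cause was not tested. Members below 0 numbered 18, and 10 to 21 with 1 library left out, 10 being without hpCTL replicate 4 or hp708 replicate 3 in the fit without surrogate variables.

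With the replicate block in place of surrogate variables, 1 gene was called, no member among them, and 20 members were below 0. The block changed no member's call; it turned Tagln to -0.0116 and Myh11 to -0.026. The replicate numbers are only names, with same-number correlations of 0.01, -0.03, -0.04 and 0.02. Surrogate variables from normalized counts turned Acta2 to -0.057, Tagln to -0.027 and Myh11 to -0.068, and the mural median to -0.027. Of the 296 member values under these 8 alternatives, 291 kept their direction and side of the threshold and 5 reversed.

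With 1 library left out, 67 of 592 member values changed direction. The log2 fold change ranged over these fits from -0.12 to 0.18 for Abcc9, -0.18 to 0.019 for Vtn, -0.44 to 0.035 for Anpep, -0.27 to 0.033 for Higd1b, -0.21 to 0.19 for Acta2, -0.28 to 0.38 for Tagln, -0.28 to 0.17 for Myh11, -0.040 to 0.19 for Col4a2, -0.84 to 0.16 for Dcn, -0.034 to 0.73 for Lum, -0.97 to 0.21 for Ogn, -0.30 to 0.17 for Mgp, -0.043 to 0.27 for Islr, -0.077 to 0.15 for Cemip, -0.61 to 0.16 for Serping1, -0.38 to 0.048 for Slc6a13, -0.027 to 0.31 for Slc13a3, -0.22 to 0.13 for Gjb2, -0.24 to 0.21 for Aldh1a2, -0.19 to 0.11 for Foxc1, -0.43 to 0.22 for Foxd1 and -0.62 to 0.0075 for Tbx18. Those of the other members kept their sign: 0.030 to 0.19 for Pdgfrb, 0.023 to 0.36 for Kcnj8, -0.12 to -0.038 for Rgs5, 0.062 to 0.35 for Notch3, 0.27 to 0.72 for Des, 0.29 to 1.06 for Cnn1, 0.073 to 0.26 for Col4a1, 0.17 to 0.27 for Lama2, 0.19 to 0.71 for Col1a1, 0.052 to 0.55 for Col1a2, 0.13 to 1.01 for Col3a1, -1.03 to -0.11 for Fmod, -1.68 to -0.44 for Slc47a1, -1.22 to -0.46 for Crabp2 and -0.68 to -0.11 for Ptgds.

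Cnn1, Foxd1, Crabp2, Higd1b and Des had under 100 reads in every library, so their values are limited by depth.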
